A study of Mus musculus with 8 samples.

Results

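The miR-29 family was followed in myoblasts, the muscle precursor cells, of C57BL/6J mice, with small RNA libraries of 4 old and 4 young animals. Its 4 precursors, mmu-mir-29a, mmu-mir-29b-1, mmu-mir-29b-2 and mmu-mir-29c (written without the species prefix from here on), were taken from the deposited table by name, 4 of the 1181 precursors listed. The labels give the age groups only as old and young, number the mice 1 to 4 within each group and name no treatment; the sources used here state neither the ages nor how the myoblasts were isolated. Libraries are called old 1 to old 4 and young 1 to young 4 after those numbers, and a number shared by an old and a young mouse is not a stated pairing.

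miR-29 is a vertebrate microRNA family whose members share a seed, the stretch near the 5′ end that pairs with target transcripts. Its best-known targets encode extracellular matrix proteins, above all collagens and elastin, and loss of miR-29 is associated with fibrosis in muscle, heart and other organs. In skeletal muscle the family is also known to promote myogenic differentiation and has been linked to muscle ageing. Each precursor is a hairpin from which a mature strand of the 3′ arm is loaded into the silencing complex, while the 5′ arm is usually the less stable passenger strand.

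The mature 3p sequences are shown first, from RefSeq on GRCm38.p6 (the mm10 build), because the members differ in few bases and the table counts them by precursor. All 4 precursors were matched to RefSeq entries. They are written 5′ to 3′ with the seed, bases 2 to 8, in capitals.
mmu-miR-29a-3p: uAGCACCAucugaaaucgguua
mmu-miR-29b-3p: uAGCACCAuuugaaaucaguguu
mmu-miR-29c-3p: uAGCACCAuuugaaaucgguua
Of 1679 mature mouse entries in the RefSeq table, 3 carry this seed, and 0 of them lie outside the family. Counted from the 5′ end of miR-29a-3p, miR-29c-3p has the single change C10U. miR-29b-3p has C10U, G18A, U21G and A22U and is 1 base longer; its end differs from that of miR-29a, and that 3′ end is known as a signal that favours nuclear import of miR-29b. Because the 3 forms are so alike, the handling of mismatched reads bears on the levels of the rarer ones, and the sources used here do not state that handling.

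The family lies at a pair of loci, each with 2 precursors on the same strand. mir-29a (chromosome 6, 31062660 to 31062747, minus strand) and mir-29b-1 (31063023 to 31063093, minus strand) are separated by 275 bases. In the GENCODE annotation of this build mir-29b-1 overlaps the end of an exon of the lincRNA Gm27019, and mir-29a overlaps no other gene. mir-29b-2 (chromosome 1, 195037040 to 195037120, plus strand) and mir-29c (195037547 to 195037634, plus strand) are separated by 426 bases and lie inside an exon of the noncoding transcript A330023F24Rik, opposite in strand to an exon of Cd46. The mir-29b-1 and mir-29b-2 hairpins are shown because they hold the same mature 3p sequence, here in capitals, within different flanks.
mir-29b-1 hairpin: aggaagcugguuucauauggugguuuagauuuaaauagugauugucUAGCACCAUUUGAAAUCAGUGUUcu
mir-29b-2 hairpin: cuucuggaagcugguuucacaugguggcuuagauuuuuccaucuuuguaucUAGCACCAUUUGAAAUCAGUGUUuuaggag
The 5p arms of these hairpins differ in length and sequence, and their seeds are offset by 1 base. They are written with the seed in capitals.
mmu-miR-29b-1-5p: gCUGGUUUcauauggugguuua
mmu-miR-29b-2-5p: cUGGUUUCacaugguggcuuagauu

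The deposited values are log2 abundances, 1 per precursor and library, with the arms not separated. Their low values step as RPKM does (reads divided by precursor length and by library size), so they are read here as log2 RPKM. Levels of different precursors are compared on this scale, per length of the hairpin. How far it reflects the relative amounts of different microRNAs in the cells was not tested. On that reading the libraries held 25.1 to 39.4 M reads, and every young library was larger than every old one (26.3 ± 1.19 M in old against 33.6 ± 4.06 M in young, SD, n = 4 each). The log2 of the summed RPKM of the 7 muscle markers was 21.1 to 21.8 in old and 20.3 to 22.1 in young libraries. This sum was made up almost wholly of mir-486, with mir-206 next. Of the 7 markers 5 were compared, while mir-1a-1 and mir-1a-2 were too low to be compared. The blood cell list gave 6 names, with mir-142 entered also as mir-142a, and 5 of the names were in the table. mir-142, mir-144 and mir-223 were listed at 0 throughout. The log2 of the summed RPKM of the blood list was 3.05 to 4.47 in old and 1.97 to 4.32 in young libraries. It was led by mir-150 (3.75 ± 0.58 in old and 3.03 ± 1.45 in young, SD, n = 4 each), the only one compared. Each library pools the RNA of many cells, so that fewer cells of a type and less RNA per cell cannot be told apart. Of the 1181 precursors, 359 reached 10 RPKM in at least 4 libraries and were compared, all 4 miR-29 precursors among them.

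mir-29a gave nearly all of the reads of the family. It gave 96.7 ± 0.459% of the reads listed under the 4 precursors in old libraries and 96.1 ± 1.34% in young ones (SD, n = 4 each), and never less than 94.7%. mir-29b-1 gave 1.71 to 3.72% of family reads, mir-29c 0.684 to 1.39% and mir-29b-2 0.141 to 0.346%. The family as a whole gave 9876 to 39954 reads per library, or 0.0329 to 0.101% of the library. Its summed RPKM was 6898 ± 2211 over the old libraries and 6564 ± 3630 over the young, and the groups overlapped.

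The levels of the members kept the same order in all 8 libraries: mir-29a, then mir-29b-1, mir-29c and mir-29b-2. Within a library mir-29a stood 5.02 ± 0.45 log2 RPKM above mir-29b-1, its neighbour on chromosome 6 (SD over 8 libraries). mir-29b-1 stood 1.78 ± 0.29 above mir-29c, and mir-29c 1.86 ± 0.60 above mir-29b-2, its neighbour on chromosome 1. Each of the 6 pairs differed in the same direction in 8 of 8 libraries (two-sided exact sign-flip test, p = 0.00781 for each and adjusted p = 0.00781 over the 6 pairs, the smallest that 8 libraries can give). By mean level mir-29a ranked 64th among the 359 compared precursors, mir-29b-1 184th, mir-29c 229th and mir-29b-2 298th.

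**Figure D1:**
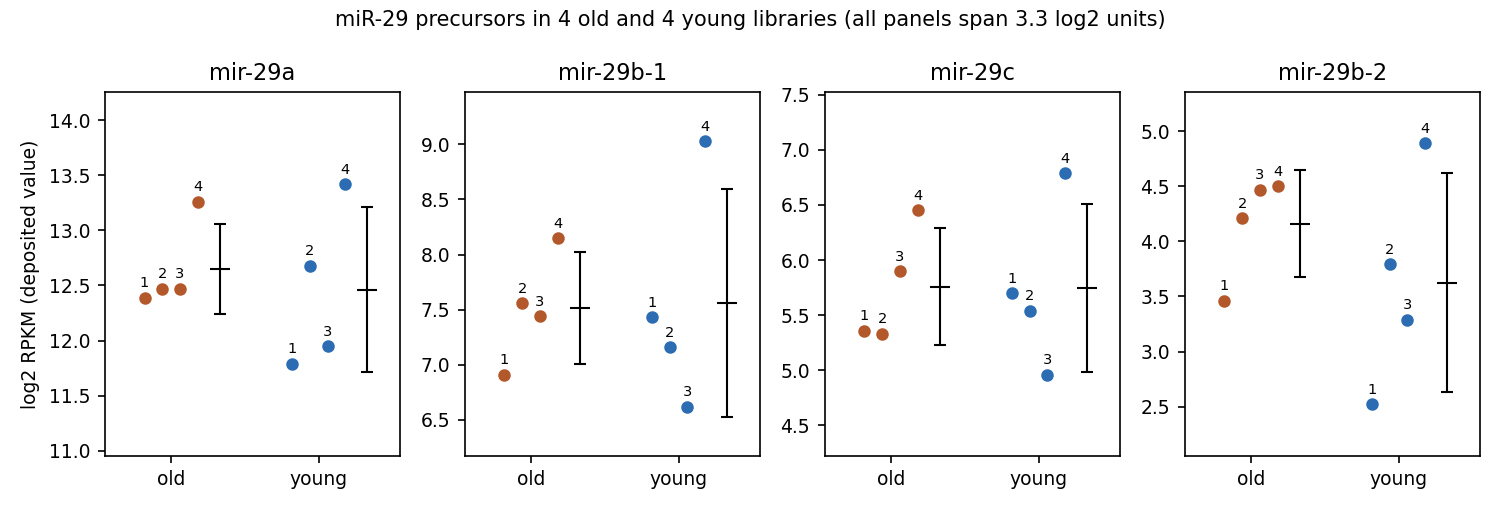
Deposited log2 RPKM of the 4 miR-29 precursors in old and young libraries; points are libraries with their number above, and the bar beside each group is the mean with its SD (n = 4). Young 4 is the highest library in every panel, old 4 the second highest, and the groups overlap for all 4 precursors.

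mir-29a, the member with by far the most reads, did not differ between old and young myoblasts by more than the spread between libraries. In log2 RPKM, the old mice 1 to 4 gave 12.39, 12.47, 12.47 and 13.26 and the young mice 1 to 4 gave 11.79, 12.68, 11.95 and 13.42. Old 1, old 2 and old 3 lay close together, old 4 and young 4 were high, and the 2 lowest libraries were young. The group means were 12.65 ± 0.41 (old) and 12.46 ± 0.75 (young; SD, n = 4 each). The old mean was higher by 0.19 (SE 0.42, 95% interval -0.74 to 1.12), which is 1.14-fold with an interval from 0.597-fold to 2.17-fold. This did not pass in limma (p = 0.662, adjusted p = 0.995), nor in a two-sided exact permutation test (p = 0.629). Without old 4 it was -0.02 and without young 1 it was -0.04, so that its sign rested on single libraries.

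mir-29b-1, the neighbour of mir-29a and the larger source of miR-29b in this table, had nearly equal means. In log2 RPKM, the old mice 1 to 4 gave 6.91, 7.56, 7.44 and 8.15 and the young mice 1 to 4 gave 7.43, 7.16, 6.62 and 9.03. Young 4 stood above all other libraries, and the 3 remaining young libraries lay at or below old 3. The group means were 7.52 ± 0.51 (old) and 7.56 ± 1.04 (young; SD, n = 4 each), and old minus young was -0.045 (SE 0.55, 95% interval -1.29 to 1.20). The test gave p = 0.937 and adjusted p = 0.995 in limma and p = 0.971 by exact permutation. Without young 4 the difference was 0.45 and without old 1 it was 0.16.

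mir-29c, on chromosome 1, also had nearly equal means in both groups. In log2 RPKM, the old mice 1 to 4 gave 5.36, 5.33, 5.90 and 6.45 and the young mice 1 to 4 gave 5.70, 5.54, 4.96 and 6.79. The highest and the lowest of the 8 libraries were both young. The group means were 5.76 ± 0.53 (old) and 5.75 ± 0.76 (young; SD, n = 4 each), 0.01 apart (SE 0.51, 95% interval -1.12 to 1.15). limma gave p = 0.981 and adjusted p = 0.995, and the exact permutation test gave p = 0.943. Leaving out 1 library moved it between -0.25 (without young 3) and 0.36 (without young 4), and it was also below 0 without old 3, old 4, young 1 or young 2.

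mir-29b-2, the least abundant member, showed the largest difference of the 4, which did not pass either. In log2 RPKM, the old mice 1 to 4 gave 3.46, 4.21, 4.47 and 4.50 and the young mice 1 to 4 gave 2.52, 3.79, 3.29 and 4.89. Old 2, old 3 and old 4 lay above 3 of the young libraries, and young 4 lay above every old one. The group means were 4.16 ± 0.48 (old) and 3.62 ± 0.99 (young; SD, n = 4 each). Old minus young was 0.54 (SE 0.58, 95% interval -0.77 to 1.84), or 1.45-fold with an interval from 0.588-fold to 3.58-fold. It did not pass in limma (p = 0.378, adjusted p = 0.995) or by exact permutation (p = 0.371). It was 0.17 without young 1 and 0.96 without young 4. These values rest on few reads, from 14 in young 1 (exact Poisson 95% interval 7.65 to 23.5 reads) to 95 in young 4 (76.9 to 116.1), against 9357 to 38013 reads for mir-29a; the intervals cover counting error only.

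Of the 4 members 0 passed limma at a threshold of 0.05 on the adjusted p, and for 0 of 4 were the old and young libraries free of overlap. Over all 359 precursors 0 passed (0% called), with 4 at an unadjusted p under 0.05 in limma and 4 in voom on recovered reads, and groups did not overlap for 3 precursors (0.836%). In this fit the 95% interval of mir-29a ran from 0.597-fold to 2.17-fold. The others ran from 0.459-fold to 2.22-fold (mir-29c), 0.410-fold to 2.29-fold (mir-29b-1) and 0.588-fold to 3.58-fold (mir-29b-2). Changes within these limits could not be set aside by this fit of the values as deposited. After median-ratio rescaling, which removes shifts of whole libraries, the log2 intervals were narrower and still covered 0. They were -0.28 to 0.73 (mir-29a), -0.76 to 0.86 (mir-29c), -0.91 to 0.89 (mir-29b-1) and -0.35 to 1.50 (mir-29b-2). The median difference over all 359 precursors was -0.05, and 46.0% had a higher mean in old libraries.

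**Figure D2:**
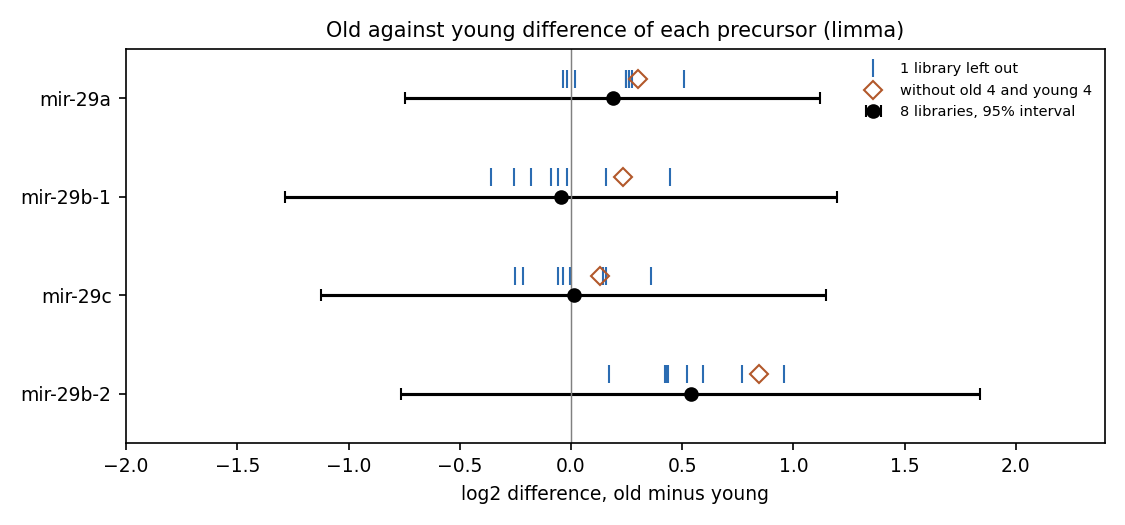
Log2 difference, old minus young, of each miR-29 precursor: black points and bars are the limma estimate and its 95% interval over 8 libraries, blue ticks the estimates with 1 library left out, and the open diamond the estimate without old 4 and young 4. All intervals cover 0, and the ticks of mir-29a, mir-29b-1 and mir-29c fall on both sides of 0 while those of mir-29b-2 stay between 0.17 and 0.96.

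The same 2 libraries stood out for all members. Young 4 was the highest and old 4 the second highest library for each of the 4 precursors. In young 4 the members stood 0.87 (mir-29a), 1.49 (mir-29b-1), 0.999 (mir-29b-2) and 1.04 (mir-29c) above their own mean over the 8 libraries, and in old 4 they stood 0.61 to 0.71 above it. Most other precursors moved the same way in these libraries: the median deviation over the 359 precursors was 0.58 in young 4 and 0.35 in old 4, against -0.33 to 0.09 in the other 6, and young 4 was the highest library for 143 of the 359 (39.8%). After median-ratio rescaling, which removes these shifts, mir-29a was highest in old 4 (12.91, against 12.84 in young 4) and mir-29b-2 in old 3 (4.45), while mir-29b-1 and mir-29c were still highest in young 4 (8.45 and 6.21).

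Summed markers of several other cell types were also high in these libraries. The sums were not rescaled, so they include the median shift of 0.35 in old 4 and 0.58 in young 4. The endothelial markers mir-126a and mir-126b summed to a log2 RPKM of 5.51 in old 4 and 6.28 in young 4, against 4.13 to 4.85 in the other libraries. The epithelial list summed to 8.04 in old 4 and 7.44 in young 4, against 4.91 to 6.43 elsewhere, with mir-200a and mir-429 at 0 in every library and mir-205 the only member compared. The blood list, led by mir-150, summed to 4.47 in old 4 and 4.32 in young 4, against 1.97 to 3.85 elsewhere. The muscle list, in effect mir-486, was lowest in young 4, at 20.33. The fibroblast and smooth muscle list stood at 15.65 in old 4 and 15.52 in young 4, within the range of the others (14.62 to 15.87). The part of these cell types, and of library size, in the miR-29 levels was not tested. Without old 4 and young 4 the differences of the members were 0.30 (mir-29a), 0.23 (mir-29b-1), 0.85 (mir-29b-2) and 0.13 (mir-29c), all with a higher mean in old libraries and none past the threshold (limma, adjusted p from 0.901 to 0.984).

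**Figure D3:**
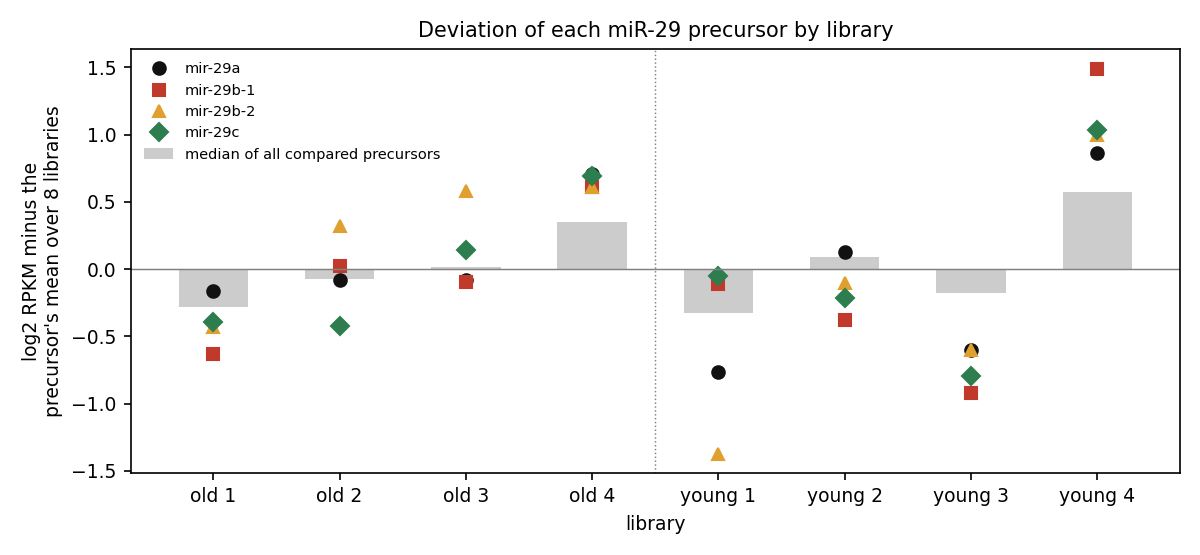
Deviation of each miR-29 precursor from its own mean over the 8 libraries, in log2 RPKM; grey bars are the median deviation of all 359 compared precursors. All 4 precursors are above their means in old 4 and young 4, where the grey bars reach 0.35 and 0.58, and in young 1 mir-29b-2 falls far below the other members.

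Ratios between members within a library cancel any scaling of the library as a whole. The ratio of mir-29a to mir-29b-1, neighbours on chromosome 6, was, on the log2 scale, 5.48, 4.91, 5.03 and 5.11 for the old mice 1 to 4 and 4.36, 5.52, 5.33 and 4.39 for the young mice 1 to 4. Young 1 and young 4 thus held relatively more mir-29b-1 than the other 6 libraries. The ratio of mir-29c to mir-29b-2, neighbours on chromosome 1, was 1.90, 1.12, 1.43 and 1.95 for the old mice and 3.18, 1.75, 1.67 and 1.90 for the young. Young 1 was the highest, with 137 reads of mir-29c against 14 of mir-29b-2. The exact binomial (Clopper-Pearson) 95% interval of its log2 ratio ran from 2.38 to 4.08 and overlapped those of old 1 (1.25 to 2.59) and old 4 (1.48 to 2.45); these intervals cover counting error only.

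None of the 4 ratios compared differed between old and young libraries by more than their spread. mir-29a to mir-29b-1 was 5.13 ± 0.25 (old) and 4.90 ± 0.61 (young; difference 0.23, two-sided exact permutation p = 0.457, adjusted p = 0.60 over the 4 ratios, n = 4 each). mir-29c to mir-29b-2 was 1.6 ± 0.40 and 2.13 ± 0.71 (difference -0.53, exact permutation p = 0.286, adjusted p = 0.571). mir-29a to mir-29c, the forms that differ by a single base, was 6.89 ± 0.25 and 6.71 ± 0.47 (difference 0.17, exact permutation p = 0.60, adjusted p = 0.60), and without young 1 the difference was -0.03. mir-29b-1 to mir-29b-2 was 3.36 ± 0.29 and 3.94 ± 0.75 (difference -0.58, exact permutation p = 0.257, adjusted p = 0.571), and it was -0.26 without young 1. With 4 against 4 libraries no such test can give a p below 0.0286.

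**Figure D4:**
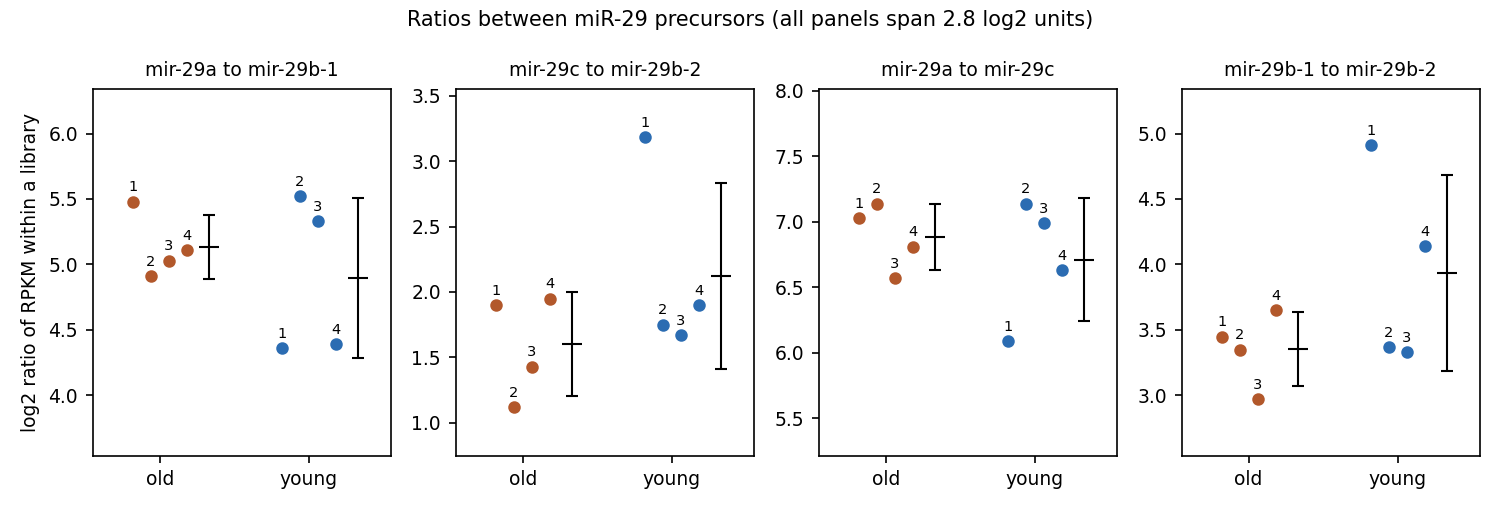
Log2 ratio of RPKM between pairs of miR-29 precursors within each library; points are libraries with their number above, bars the mean with SD (n = 4). Young 1 is the lowest or highest library in all 4 panels, at 3.18 for mir-29c to mir-29b-2 and 4.91 for mir-29b-1 to mir-29b-2.

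The precursors mir-29b-1 and mir-29b-2 carry the same miR-29b-3p, yet their values were far apart. mir-29b-1 was higher by 2.97 to 4.91 on the log2 RPKM scale, with a mean of 3.65. Had each read of the shared mature form been listed under both names, or divided evenly between them, and had no other read entered, the ratio would equal that of their lengths, 0.19. After removing the length ratio, mir-29b-1 was credited with 11 times as many reads on average.

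Other precursors with a shared mature form were looked at beside this pair, and they did not all behave alike. The RefSeq table lists an identical mature sequence of the 3p or 5p arm for both members of 28 pairs of compared precursors, with overlapping loci left out, that were above 0 in all libraries; pairs were taken from its entries alone and need not be all such pairs. In 11 of the other 27 pairs the mean ratio lay within 0.1 of the log2 ratio of lengths, such as mir-181a-1 and mir-181a-2 (-0.22 against -0.20), mir-26a-1 and mir-26a-2 (-0.10 against -0.10) and let-7c-1 and let-7c-2 (0.01 against 0.02). For these, reads were listed in nearly equal number under both names. Of the other 27 pairs listed 2 differed from the length ratio by more than 1 log2 unit, mir-92a-1 and mir-92a-2 (5.62 against 0.19) and let-7a-1 and let-7c-2, which share a passenger arm alone (-1.38 against 0.02). The SD over libraries of the mir-29b-1 to mir-29b-2 ratio, 0.61, was the second highest of the 28, after that of mir-128-1 and mir-128-2 at 0.81, against a median of 0.13 for the other 27. These values carry the limit that mir-29b-2 has 14 to 95 reads and that the sources used here do not state how reads matching both hairpins were assigned.

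**Figure D5:**
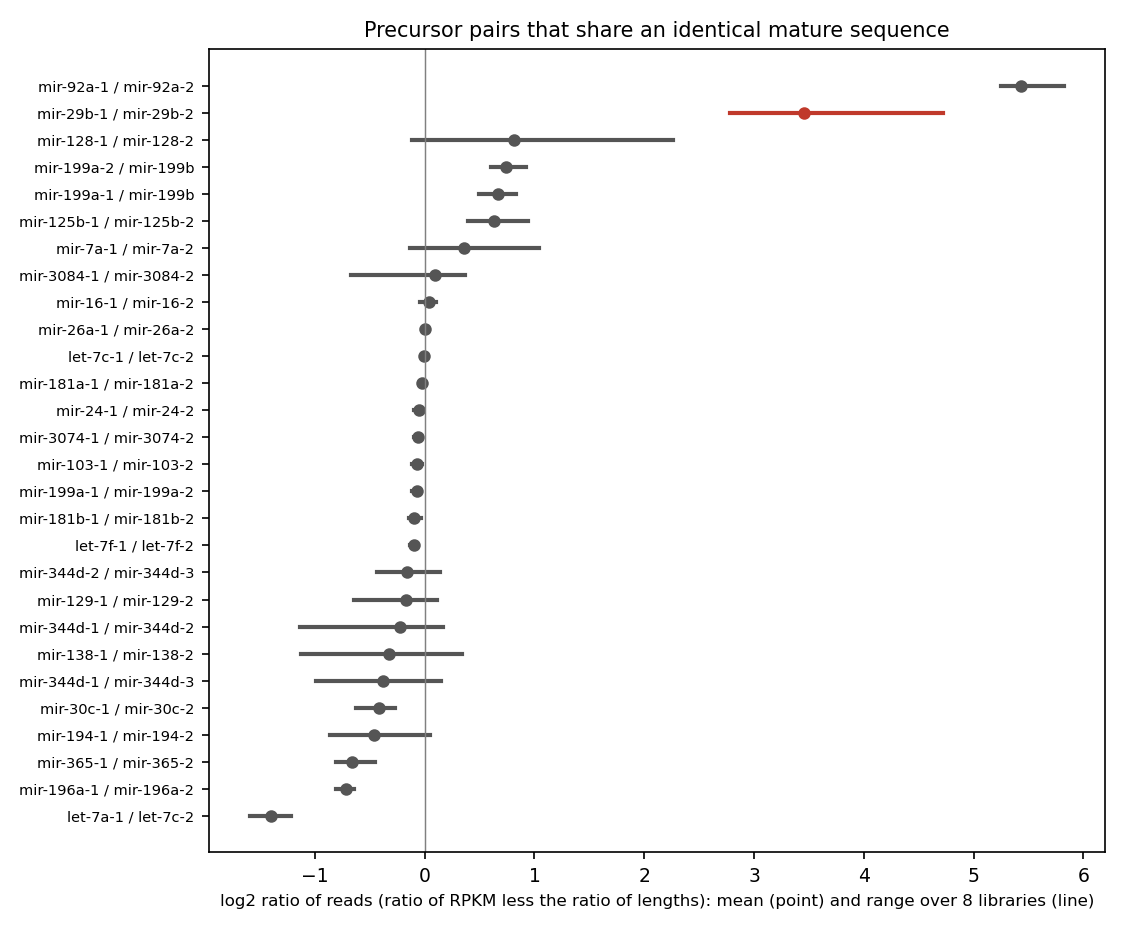
Pairs of compared precursors that share an identical mature sequence; points are the mean over 8 libraries of the log2 ratio of reads (ratio of RPKM less the ratio of lengths), lines the range. Of the other 27 pairs 11 lie within 0.1 of 0, while mir-29b-1 and mir-29b-2, in red, stand at 3.46 and, of the pairs drawn, mir-92a-1 and mir-92a-2 stand further out.

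The precursors whose pattern over the 8 libraries was most like that of mir-29a came from other loci. Likeness was measured as the SD over the 8 libraries of the log2 ratio to mir-29a, which is 0 for a constant ratio and had a median of 0.61 over the other 355 compared precursors. The closest were mir-361 (0.15), mir-106b (0.15), mir-674 (0.16), mir-107 (0.18) and mir-199a-2 (0.19). mir-29c had an SD of 0.36 to mir-29a, mir-29b-2 of 0.40 and mir-29b-1, its own neighbour, of 0.45, with 20%, 25.4% and 32.7% of the 355 closer than each. For mir-29c the closest were mir-342 (0.16), mir-186 (0.17), mir-30c-2 (0.17), mir-30c-1 (0.20) and mir-30f (0.20), the last with values identical to those of mir-30e in every library, against a median of 0.67. The closest pair within the family was mir-29b-1 and mir-29c, which lie on different chromosomes, with an SD of 0.29. mir-29c and its neighbour mir-29b-2 had 0.60, which rests largely on young 1. There the log2 ratio was 3.18, with 14 reads of mir-29b-2, against 1.12 to 1.95 in the other libraries. These likenesses describe the 8 libraries at hand, since all precursors of a library share its depth and the upward shift of old 4 and young 4.

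miR-29 is counted among the microRNAs that restrain fibrosis, and the other lists were taken with that role in view. Over all 359 compared precursors, 46.0% had a higher mean in old libraries. Of 14 compared precursors of other anti-fibrotic families (miR-30, miR-133, miR-26 and miR-101; 15 listed) 4 had a higher and 10 a lower mean in old libraries, with 0 passed and a median difference of -0.10. In log2 RPKM mir-30d was at 15.87 ± 0.40 (old) and 16.12 ± 0.89 (young), and mir-30a at 15.16 ± 0.49 and 15.26 ± 0.84 (SD, n = 4 each, in this order here and in what follows). Of 8 compared precursors reported as raised in fibrotic tissue 6 had a higher and 2 a lower mean in old libraries, with 0 passed and a median of 0.21, beside -0.05 for all 359 precursors. Among these mir-21a, which is induced by TGF-beta signalling, measured 13.33 ± 0.57 and 13.41 ± 0.85, and mir-214 measured 12.72 ± 0.54 and 12.26 ± 0.58.

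No muscle or cell-cycle precursor on the lists passed either. The counts below stand beside a share of 46.0% with a higher mean in old libraries over all 359 precursors. Of 9 muscle differentiation precursors listed, 6 were compared, while mir-1a-1, mir-1a-2 and mir-1b were too low to be compared. Of these 6 compared precursors 2 had a higher and 4 a lower mean in old libraries (median -0.10, 0 passed). The most abundant, mir-486, which is enriched in muscle, measured 21.41 ± 0.28 and 21.28 ± 0.81, and mir-378a measured 16.99 ± 0.34 and 17.14 ± 0.13. mir-206, a muscle-specific microRNA of differentiating myoblasts, measured 15.90 ± 0.17 and 15.72 ± 0.72. The list of the miR-34 and miR-15 groups, which slow the cell cycle, gave 9 names, 8 of them in the table. Of the 7 compared under these names 5 had a higher and 2 a lower mean (median 0.10, 0 passed). mir-34c was at 13.94 ± 0.67 and 14.03 ± 0.68 and mir-34a at 11.80 ± 0.42 and 11.70 ± 0.76. The list names mir-497a, so mir-497, which was compared under that name, is not in this count. Its old minus young difference was 0.155. All 6 fibroblast and smooth muscle markers had a higher mean in old libraries (median 0.29, 0 passed), among them mir-143 at 15.20 ± 0.31 and 14.79 ± 0.54. These are not separate markers, since mir-199a-1, mir-199a-2 and mir-199b share an identical mature sequence. The same precursors and mir-214 also stand on the list raised in fibrotic tissue, so the counts of these lists are not independent. Beside these medians the members of the miR-29 family had differences of 0.19, -0.045, 0.54 and 0.01, and their own relation to these lists was not tested.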

How the data were processed

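Small RNA of myoblasts from 4 old and 4 young mice was isolated with a mirVana kit, per the labels' protocols. The submitters' processing notes name BWA and mm10 with no version or role. The values deposited by the authors are on a log2 scale, rounded to 2 decimals, 1 for each of 1181 precursors per library, and read 0 wherever the linear value is below 1. Low values, up to 12 reads, times precursor length were whole multiples of a step in 100% of cases (111 to 216 per library, tolerance 0.1 read). Library sizes and reads were recovered from that step. The reads served descriptions and an alternative fit with voom only, and the main tests did not use them. Lengths were matched for 1176 of 1181 precursors, and 359 of 359 compared ones, from RefSeq (GRCm38).

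With R 4.3.3, limma 3.58.1 with its trended eBayes step was fitted to the deposited log2 values of the 359 precursors with at least 10 RPKM in at least 4 libraries, with Benjamini-Hochberg adjustment and a threshold of 0.05, and was tested on simulated data. Exact tests used all 70 arrangements or 256 sign flips. Named precursors were the 4 members, up to 3 most abundant of each list, and the 5 most like mir-29a and mir-29c; precursors named among copies were chosen after their values were seen. Members and lists were chosen with earlier results of these data known. Alternatives were other pseudocounts, filters, scalings and fits, a replicate block, and leaving out libraries. Other steps used Python 3.11.15 with scipy 1.17.1, pandas 2.3.3, numpy 2.4.6 and, for plots, matplotlib 3.10.9.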

Additional observations from a re-analysis of the deposited data

Results flagged for a closer look

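Of 16 groups of 4 libraries checked (the 4 precursors and 4 ratios, in old and in young), 2 held a library set far apart from the other 3. For independent groups chance gives about 1 in 20, but the ratios are made of the members' values, so this rate is a rough guide only. mir-29a in old 4, at 13.26 log2 RPKM, was separated from the next old library by 0.908 of the range of the old group. That value includes the shift of the whole library. After median-ratio rescaling the old mice 1 to 4 gave 12.67, 12.54, 12.45 and 12.91. The log2 ratio of mir-29c to mir-29b-2 in young 1, at 3.18, was separated from the next young library by 0.848 of the range of the young group, and rests on 14 reads of mir-29b-2.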

How the results depend on the processing

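The order of the member levels held for 6 of 6 pairs with a pseudocount of 10 and without each library in turn (6 to 6). The count of precursors past the threshold was 0 without each library in turn (0 to 0) and in all other settings except without both old 3 and young 4, where it was 33; none of the 4 members was among the called in any setting. mir-29a stayed above 0 in all 13 settings that kept all libraries or left out a pair (0.18 to 0.57) and ranged from -0.036 to 0.51 with 1 library left out. mir-29b-2 kept its sign throughout (0.27 to 0.86, and 0.17 to 0.96 with 1 left out), and mir-29c was 0.00072 to 0.31, or -0.25 to 0.36 with 1 left out. mir-29b-1 turned positive with TMM rescaling (0.037), quantile normalization (0.18), array weights (0.24), without both old 3 and young 4 (0.47) and without both old 4 and young 4 (0.23), and ranged from -0.36 to 0.45 with 1 left out; the cause was not tested. Quantile normalization moved the median of all precursors from -0.05 to 0.09, so that mir-29b-1 stood 0.094 above it. With a mean of at least 100 RPKM, mir-29b-2 and mir-29c were not in the fit. Leaving out 1 library gave 0.053 to 0.44 for mir-29a to mir-29b-1, -0.033 to 0.32 for mir-29a to mir-29c, -0.79 to -0.26 for mir-29b-1 to mir-29b-2 and -0.68 to -0.17 for mir-29c to mir-29b-2. The replicate numbers share no stated source: old and young libraries of the same number correlated at -0.064, 0.43, 0.66 and 0.58 in their deviations from the group means, and 6 of 8 libraries correlated best with their own number. With the number as a replicate block 0 precursors passed, 39 had an unadjusted p under 0.05, and the members' differences were 0.19, -0.045, 0.54 and 0.01 (adjusted p from 0.939 to 0.992). The paired ratio of mir-29b-1 to mir-29b-2, lower in old in 4 of 4 same-numbered pairs (-0.58), gave an exact p of 0.125, the smallest that 4 pairs allow (adjusted p = 0.50); the other 3 gave 0.25 to 0.75.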
